A study of Homo sapiens with 6 samples.

Results

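Transcripts of 32 genes for integrins and other laminin receptors were measured in human embryonic stem cells grown on laminin coatings. The 32 genes were taken by symbol: the 18 α and 8 β chains of integrins, the non-integrin receptors DAG1, BCAM and RPSA, the integrin partner CD151, and the sarcoglycans SGCB and SGCE. Each symbol matched 1 Ensembl gene ID, so the set is 32 of the 60499 IDs in the deposited gene tables. They are grouped below by the class of ligand they bind.

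The cells were H1, an established human embryonic stem cell line, kept in Nutristem, a defined stem cell medium that was changed daily. They grew for 4 days in wells coated with laminin-521 (LN-521) or with laminin-521 together with laminin-221 (LN-521+LN-221, called the mixture below), and RNA was taken at confluence. Each coating had 3 wells, read as separate libraries. All 6 wells shared the cell line, the medium and laminin-521. Laminin-221 was thus never the only coating, the proportions of the mixture are not given in the sources used here, and a single cell line was studied.

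Laminins are basement membrane proteins, each built of an α, a β and a γ chain, and laminin-521 and laminin-221 differ in the α chain (LAMA5 against LAMA2). Cells hold on to them mainly through integrins, membrane receptors made of 1 α and 1 β chain that link the matrix outside to the actin skeleton inside. In human pluripotent stem cells the integrin of ITGA6 with ITGB1 is known as the main receptor for laminin-521. The integrin of ITGA7 with ITGB1 and dystroglycan, the product of DAG1, are the laminin receptors known from muscle, where laminins with the LAMA2 chain are abundant. The protein, not the transcript, is what binds, and no protein was measured here.

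Total estimated counts ran from 20606450 to 26836686 per library, and all 6 carry the same sequencing batch in the sheet deposited with them. Markers of pluripotent stem cells summed to 2825 to 3151 TPM (a level per transcript length, with an equal total in every library) on LN-521 and 2725 to 2935 on the mixture. Of the 8, LIN28A was higher and POU5F1, NANOG and TDGF1 were lower on the mixture (edgeR adjusted p under 0.05). The neural ectoderm markers summed to 102.5 to 122.1 TPM on LN-521 and 162.5 to 166.0 on the mixture, with OTX2 and ZIC1 higher among 5 tested of 6. Mean TPM of OTX2 went from 45.6 to 79.3, while NES, at 60.5 and 64.5, overlapped (edgeR adjusted p = 0.712). PAX6 and SOX1 had means of 0.19 and 0.0533 TPM over all wells. PAX6 did not pass (edgeR adjusted p = 0.766) and SOX1 was not tested. LHX5, at 7.70, 6.20 and 3.37 TPM on LN-521 and 18.7, 18.6 and 21.5 on the mixture, did not overlap and had the list's largest log2 fold change, but missed the threshold (1.75 ± 0.30 SE, edgeR adjusted p = 0.0865). Of 7 leukocyte and platelet markers 3 were tested and none passed, and the sum of all 7 was 10.1 to 11.7 against 8.32 to 10.4 TPM. The platelet gene PF4 came nearest, with CPM that did not overlap (log2 fold change -0.98, edgeR adjusted p = 0.0858). Lists for other cell types had few markers above the filter: 1 of 8 for mesoderm, 2 of 6 for endoderm and 3 of 6 for trophoblast, none past the threshold. Of 4 fibroblast markers tested THY1 was lower (LUM was at 0), of 2 of skeletal muscle DES was lower, and of 3 of endothelium VWF was higher. The 7 fibroblast markers summed to 125.8 to 139.1 TPM on LN-521 and 114.9 to 141.3 on the mixture. COL1A1, COL1A2 and POSTN did not pass (log2 fold change -0.20, 0.12 and -0.85, edgeR adjusted p = 0.0724, 0.449 and 0.302). The part of these marker differences in the receptor differences below was not tested.

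Apart from RPSA, the transcripts at the highest level were those of ITGB1 and ITGA6, the chains of the main laminin-521 receptor. RPSA encodes both a protein of the small ribosomal subunit and the precursor of a laminin receptor, and its mean level over the 6 wells was 1423 TPM. ITGB1, the β chain shared by most matrix-binding integrins, followed at 118 TPM, then ITGA6 at 53.5 and ITGB5 at 39.8. The ranges of these 4 genes over the wells did not overlap. BCAM (29.9 TPM), CD151 (28.4), ITGA7 (24.4) and DAG1 (23.0) came next, and each overlapped its neighbour in this order. Below them were ITGAV (16.3), ITGA2B (13.2), SGCE (10.6), SGCB (9.04), ITGA3 (6.91), ITGA5 (6.85) and ITGAE (6.34), also a run of overlapping ranges. ITGA1 stood at 4.01 TPM, and ITGA2, ITGB8, ITGB4, ITGA9 and ITGA4 at 2.83 to 1.28 TPM. The other 11 members, among them every chain of the β2 leukocyte integrins, had means of 0.42 TPM (ITGAM) or less. The TPM scale was shared with 7SL RNA, a small RNA of the signal recognition particle, which held 30.1% to 37.3% of all TPM in a library.

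**Figure D1:**
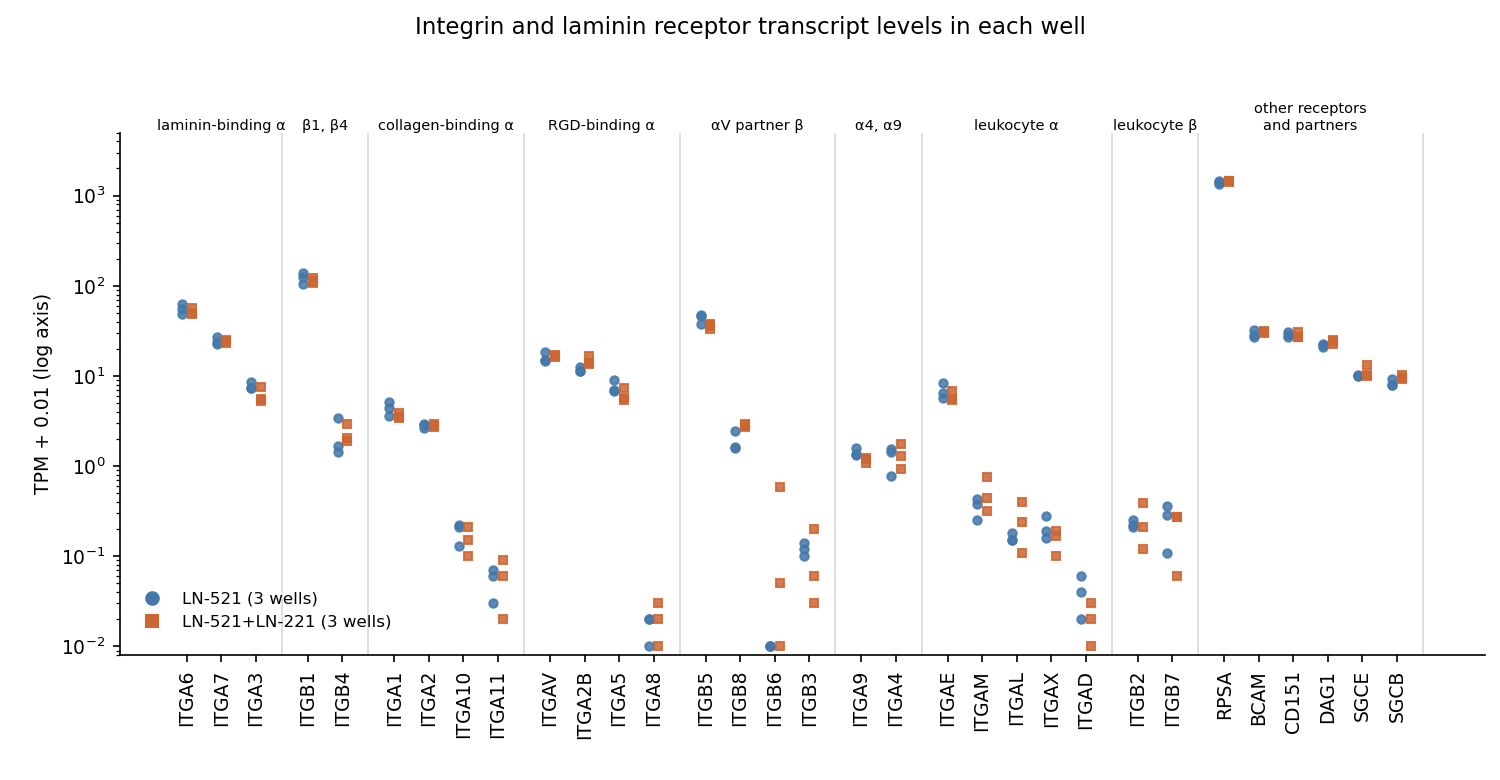
Level of each of the 32 genes in each of the 6 wells, as TPM plus 0.01 on a log axis, grouped by ligand class; circles are LN-521 wells and squares LN-521+LN-221 wells. RPSA, ITGB1 and ITGA6 lie highest, ITGB8 lies higher in the squares than in the circles, and the leukocyte chains other than ITGAE lie below 1 TPM.

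Within the α chains, ITGA6 held 40.4%, 37.4% and 40.0% of the summed α-chain TPM in the LN-521 wells and 40.4%, 36.2% and 38.1% in the wells of the mixture. The coatings overlapped. ITGA7 held 17.5% ± 1.16 (SD, n = 3) and 17.8% ± 0.226 (SD, n = 3). The shares of ITGAV, ITGA9 and ITGA2B did not overlap. ITGAV held 11.9%, 11.3% and 10.9% on LN-521 and 12.2%, 12.4% and 12.3% on the mixture. ITGA9 held 1.01%, 1.05% and 0.950% on LN-521 and 0.755%, 0.915% and 0.906% on the mixture. The shares of ITGA2B are given with its other values. Among the laminin-binding α chains alone, ITGA6 made up 63.0% ± 2.08 and 63.1% ± 2.45, ITGA7 28.2% ± 2.02 and 29.4% ± 0.858, and ITGA3 8.83% ± 1.15 and 7.49% ± 1.71 (SD, n = 3 each), and all of these overlapped. The order ITGA6, ITGA7, ITGA3 was the same in all 6 wells.

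The β chains were dominated by ITGB1, with 71.6% ± 1.47 of the summed β-chain TPM on LN-521 and 73.1% ± 0.752 on the mixture (SD, n = 3 each). ITGB5 held 24.3%, 25.5% and 27.1% on LN-521 and 23.1%, 23.3% and 23.1% on the mixture, with no overlap. ITGB8 held 1.32%, 1.08% and 0.889% on LN-521 and 1.65%, 1.85% and 2.02% on the mixture, also with no overlap. These shares are descriptions, without a test, and the shares within a library sum to a fixed total.

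**Figure D2:**
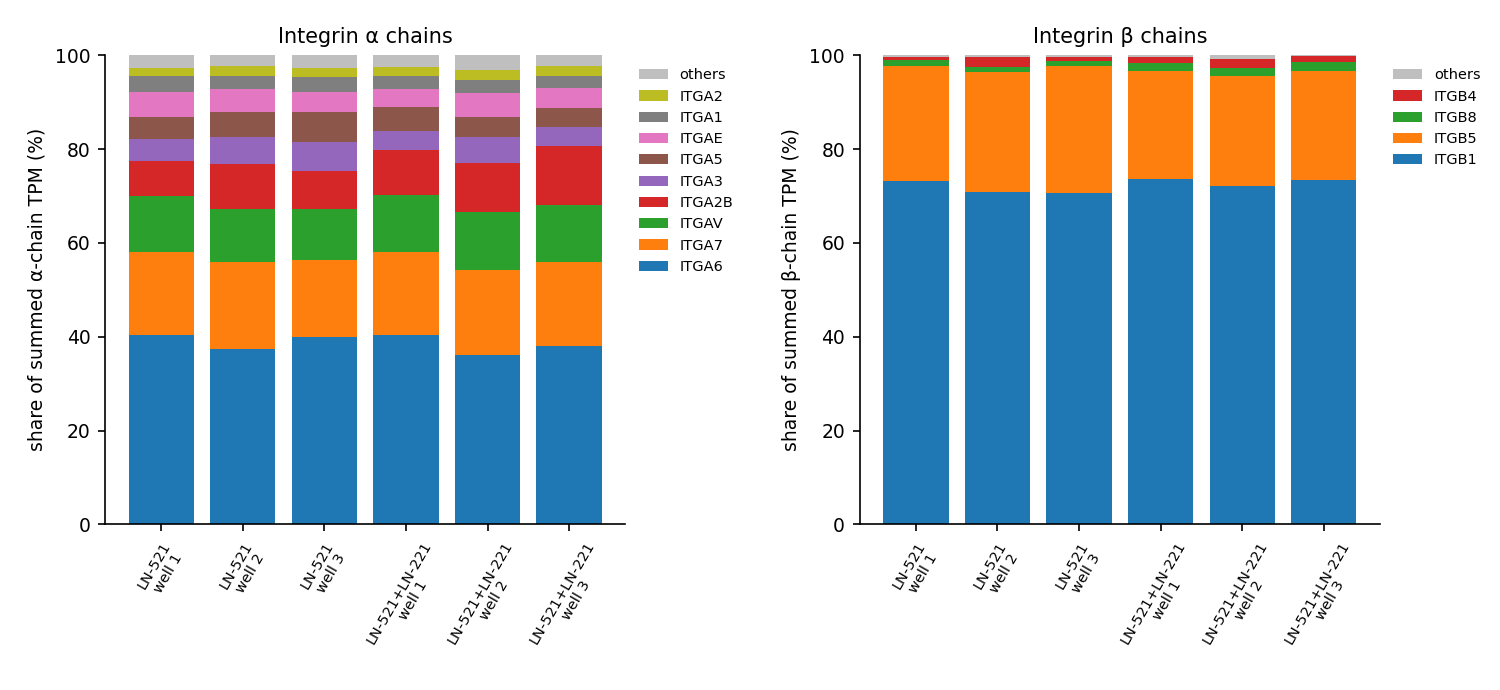
Share of the summed α-chain TPM (left) and β-chain TPM (right) held by each chain in each well, in percent; each bar is 1 well. ITGA6 and ITGB1 form the largest segment of every bar, and the thin ITGB8 segment is wider in the LN-521+LN-221 wells.

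To ask which receptor transcripts differed with the coating, the quasi-likelihood test of edgeR was run on the counts of all 17608 genes that passed its filter on low counts. Of the 32 receptor genes 26 passed the filter, and 2 of these had an adjusted p under 0.05. ITGB8 was higher and ITGA3 lower on the mixture. Among all genes tested 2.53% passed the same threshold, 1.4% higher and 1.14% lower, and a count of 2 in 26 cannot be set apart from that background. Replicates were wells of 1 cell line, which are numbered as biological replicates in the labels, and whether they came from separate cultures is not given in the sources used here. The p-values therefore measure the spread between these wells. An unadjusted p under 0.05 was reached by 7 of the 26, against 14.5% of all genes. CPM, the counts scaled to library size, did not overlap between the coatings for 6 of the 26, against 19.9% of all genes.

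The count differed in other settings, as did that of all genes. DESeq2 called 3, with ITGB5 beside ITGA3 and ITGB8, and 3.86% of the genes to which it gave an adjusted p. With counts corrected for the GC content of transcripts, edgeR called 6, the same 3 with ITGB1, SGCB and DAG1, and 5.17% of all genes. Without LN-521 replicate 1 it called 4 (ITGA3, ITGB5, ITGB8 and SGCB) and 6.54% of all genes. It called 0 without LN-521 replicate 2 (3.56% of all genes), LN-521 replicate 3 (1.13%) or LN-521+LN-221 replicate 3 (1.09%). Only ITGB8 was called without LN-521+LN-221 replicate 1 (1.61% of all genes) or replicate 2 (1.1%). Limma on log2(TPM + 1) called none of the receptor genes, and 0.229% of the genes it tested.

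Of the 26 log2 fold changes (LN-521+LN-221 over LN-521) 17 were negative, with a median of -0.09, where 50.3% of all genes were negative. One of the negative values, that of ITGA3, passed the test. Of the 20 integrin chains 16 were negative, and this was 14 to 17 of 20 when a well was left out, where 48.6% to 50.8% of all genes were negative. In the fit on log2(TPM + 1) it was 9 of 15, where 39.5% of all genes were negative and their median log2 difference was 0.03. No test of the set was made, and the counts are given as a description.

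**Figure D3:**
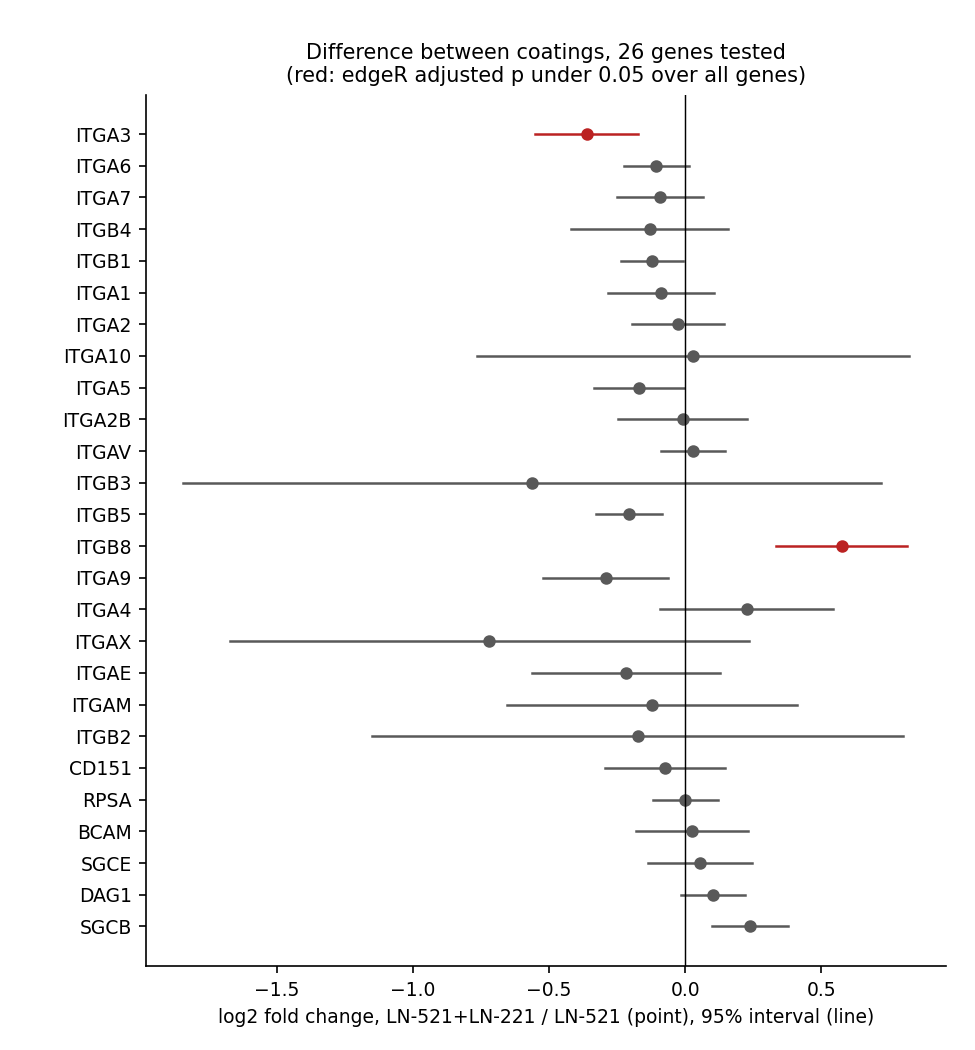
Log2 fold change of CPM, LN-521+LN-221 over LN-521, for the 26 receptor genes tested; points are edgeR estimates, lines their 95% intervals, and red marks an adjusted p under 0.05 over all genes. Only the lines of ITGA3, ITGA5, ITGA9, ITGB1, ITGB5, ITGB8 and SGCB leave out 0, and the widest lines belong to the low-level chains ITGB3, ITGAX, ITGB2 and ITGA10.

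Of the laminin-binding α chains, ITGA3 fell and the more abundant ITGA6 and ITGA7 did not pass the test. ITGA3 (ENSG00000005884, GRCh38 chromosome 17, 50055968 to 50090481, plus strand) encodes the α chain of an integrin that binds laminins with the LAMA5 or LAMA3 chain. It stood at 34.2, 43.7 and 41.7 CPM on LN-521 and 29.5, 33.1 and 30.5 CPM on the mixture. Replicate 1 on LN-521 lay close to replicate 2 on the mixture, but the groups did not overlap. The means were 39.9 ± 5.04 and 31.04 ± 1.89 CPM (SD, n = 3 each). The log2 fold change was -0.36 (SE 0.09), with an adjusted p of 0.0370 in edgeR, and the level fell by 22.2%. In bulk RNA, fewer cells with a transcript and less of it per cell cannot be told apart.

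The call for ITGA3 depended on the wells used. With 1 well left out it held only without LN-521 replicate 1 (edgeR adjusted p = 2.75e-04) and was lost in each fit without another well (edgeR adjusted p from 0.0742 to 0.206), while the log2 fold change stayed between -0.46 and -0.29. In TPM the coatings overlapped: 7.29, 7.31 and 8.46 on LN-521, and 5.52, 7.62 and 5.24 on the mixture. On that scale limma gave an adjusted p of 0.666.

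ITGA6 (ENSG00000091409, chromosome 2, 172427354 to 172506282, plus strand) had 325, 289 and 299 CPM on LN-521 and 294, 283 and 272 CPM on the mixture, and the coatings overlapped. Its log2 fold change was -0.11 with a 95% interval of -0.22 to 0.01 (edgeR adjusted p = 0.423). ITGA7 had 45.7, 55.2 and 46.6 CPM against 45.4, 45.8 and 47.3 CPM. The coatings overlapped, only LN-521 replicate 2 stood apart, and without it the log2 fold change of ITGA7 was 0.0024 in place of -0.09 (95% interval -0.25 to 0.07, edgeR adjusted p = 0.636).

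ITGB1 (ENSG00000150093, chromosome 10, 32900319 to 33005792, minus strand) is the β partner of ITGA3, ITGA6 and ITGA7 and of the collagen-binding α chains. It had 504, 455 and 509 CPM on LN-521 and 459, 450 and 439 CPM on the mixture, so that only LN-521 replicate 2 fell inside the range of the mixture. Like those of ITGA1 and RPSA, its estimated counts were not whole in all 6 libraries. The log2 fold change was -0.12 ± 0.05 (SE; 95% interval -0.24 to -0.01, edgeR adjusted p = 0.305). With the GC correction it was -0.16 and passed the threshold (edgeR adjusted p = 0.0152). ITGB4, which pairs with ITGA6 in the hemidesmosomes of epithelia, was low at 8.47 ± 1.30 and 7.74 ± 1.04 CPM (SD, n = 3 each) and did not pass (log2 fold change -0.13, edgeR adjusted p = 0.733).

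Besides ITGB1, 4 β chains pair with ITGAV. Of these, ITGB8 rose, the more abundant ITGB5 had lower values that missed the threshold, and ITGB3 and ITGB6 were near 0. ITGB8 (ENSG00000105855, chromosome 7, 20330702 to 20415754, plus strand) pairs with ITGAV alone, in an integrin known for activating latent TGF-β. It had 22.9, 17.6 and 15.6 CPM on LN-521 and 26.7, 27.1 and 29.6 CPM on the mixture. The lowest well on the mixture lay above the highest well on LN-521, and the LN-521 wells were the more scattered. Means were 18.7 ± 3.75 and 27.8 ± 1.59 CPM (SD, n = 3 each). The log2 fold change was 0.58 (SE 0.11, 95% interval 0.34 to 0.81), with an adjusted p of 0.00939 in edgeR, and the level rose by 49.0%.

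TPM of ITGB8 did not overlap either, with 2.47, 1.6 and 1.56 on LN-521 and 2.73, 2.86 and 2.93 on the mixture. On the log2(TPM + 1) scale, however, limma gave an adjusted p of 0.388. The edgeR call was lost without LN-521 replicate 2 (adjusted p = 0.0561), LN-521 replicate 3 (0.0744) or LN-521+LN-221 replicate 3 (0.0734). Its log2 fold change ranged from 0.46 to 0.74 over the 6 fits that each left out a well.

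AC004130.1 is annotated antisense to exons of ITGB8 and had 19 to 37 counts on LN-521 and 10 to 14 on the mixture (log2 fold change -0.95, edgeR adjusted p = 0.209). Its counts were thus far below the 389 to 701 of ITGB8. In all, 15 of the 32 genes share exon sequence with a gene on the opposite strand. The opposite gene had 2925 to 3608 counts for SGCE (PEG10), 594 to 921 for CD151 (POLR2L) and 379 to 659 for ITGA7 (BLOC1S1). Whether the counting used the strand is not given in the sources used here, so part of the counts of such pairs cannot be told apart.

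ITGB5 (ENSG00000082781, chromosome 3, 124761948 to 124901418, minus strand) encodes the β chain of a vitronectin receptor. It had 91.3, 100.4 and 94.9 CPM on LN-521 and 81.7, 82.9 and 84.0 CPM on the mixture, with no overlap. The log2 fold change was -0.21 ± 0.06 (SE; 95% interval -0.33 to -0.08), and the adjusted p of 0.0752 in edgeR missed the threshold. It passed with DESeq2 (adjusted p = 0.0354), with the GC correction in edgeR (0.0139) and in edgeR without LN-521 replicate 1 (0.00945). It missed the threshold in the other 5 fits that left out a well (edgeR adjusted p from 0.117 to 0.323). Its TPM overlapped, with 45.7, 37.8 and 47.6 on LN-521 and 38.1, 36.0 and 33.5 on the mixture, and limma on log2(TPM + 1) gave an adjusted p of 0.592. As part of the summed TPM of these 4 β chains, without ITGB1, ITGB8 held 5.12%, 4.05% and 3.16% on LN-521 and 6.67%, 7.23% and 8.05% on the mixture, and ITGB5 held nearly all the rest.

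ITGAV, the α chain that all 4 of these pair with, had 122, 112 and 117 CPM on LN-521 and 121, 119 and 118 CPM on the mixture. The coatings overlapped and its log2 fold change was 0.03 (95% interval -0.09 to 0.15, edgeR adjusted p = 0.864). ITGB3 had 9, 15 and 16 counts against 5, 18 and 1, too few to place its difference (95% interval -1.85 to 0.72). ITGB6 had 0 counts in each LN-521 well, which allows up to 0.113 to 0.131 CPM (3 counts), and 3, 5 and 0 counts on the mixture. It was not tested.

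**Figure D4:**
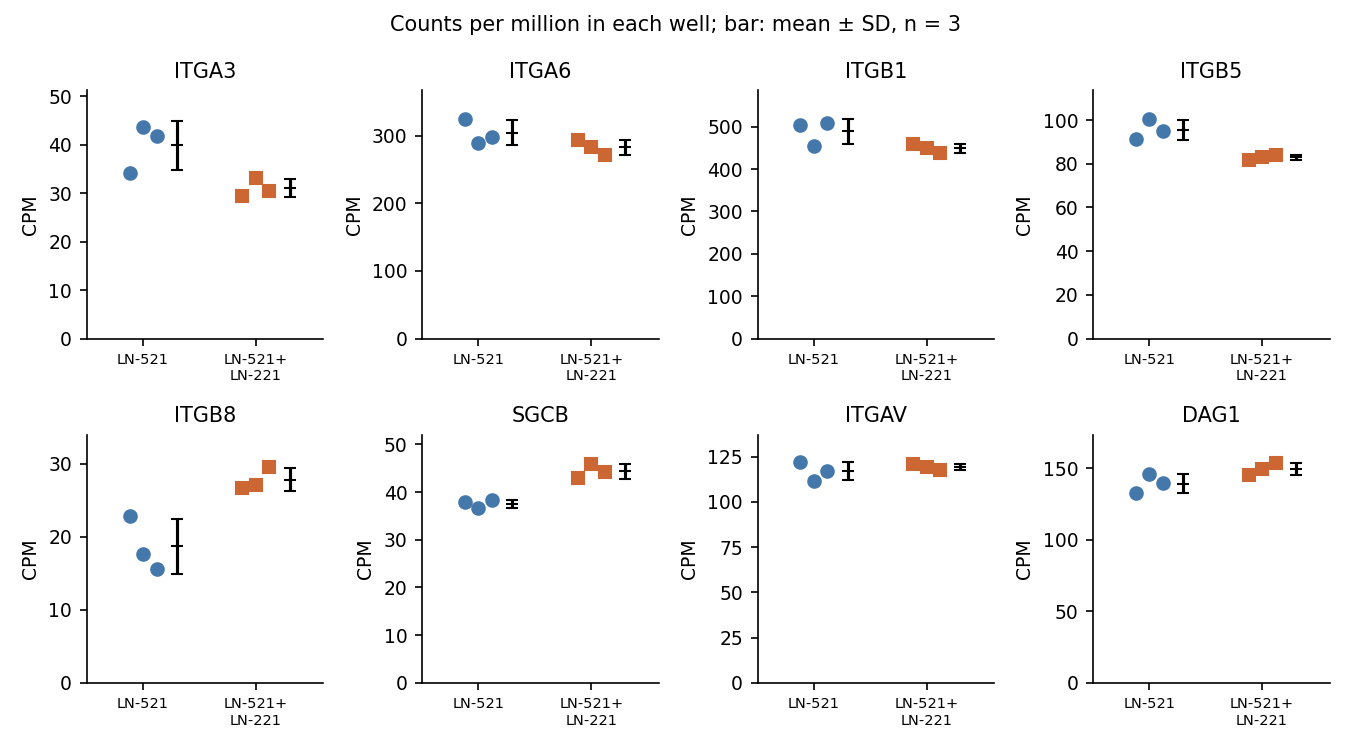
CPM of 8 receptor genes in each well, on axes that start at 0; circles are LN-521 wells, squares LN-521+LN-221 wells, and bars the mean ± SD of 3 wells. The groups do not overlap for ITGA3, ITGB5, ITGB8 and SGCB, and do for ITGA6, ITGB1, ITGAV and DAG1.

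Of the other α chains that recognise the RGD motif of fibronectin and related proteins, ITGA5 and ITGA2B were tested and did not pass. ITGA5, the α chain of the classical fibronectin receptor, had 28.3, 33.2 and 31.6 CPM on LN-521 and 28.1, 26.6 and 28.0 CPM on the mixture. The lowest LN-521 well lay just above the highest well on the mixture, and the log2 fold change was -0.17 (95% interval -0.34 to -0.00, edgeR adjusted p = 0.331). ITGA8, a nephronectin receptor chain, had 0 to 3 counts per well and was not tested. ITGA2B, the α chain of the platelet fibrinogen receptor, had 10.7, 13.8 and 13.1 CPM against 11.4, 12.2 and 13.6 CPM, a log2 fold change of -0.01 (95% interval -0.25 to 0.23).

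For ITGA2B the counts and the TPM gave different pictures. It had 11.5, 12.4 and 11.4 TPM on LN-521 and 13.6, 13.96 and 16.6 on the mixture, with no overlap, and its share of α-chain TPM was 8.42% ± 1.11 and 10.9% ± 1.55 (SD, n = 3 each). TPM equal counts divided by the length of the isoforms assigned to the reads, so the ratio of counts to TPM gives the implied length up to a factor per library. Relative to the median of the 6 libraries, the implied length of ITGA2B was 106%, 107% and 118% on LN-521 and 94.0%, 93.8% and 84.5% on the mixture. This difference, -0.28 ± 0.06 (SE) on the log2 scale, had an unadjusted p of 0.00670 and did not pass after adjustment (limma, adjusted p = 0.646). None of 12529 genes passed that test, and 5.61% had an unadjusted p under 0.05. ITGA1 was the only other one of 20 receptor genes with such a p (0.22 ± 0.07, limma adjusted p = 0.861). For ITGB8 and ITGA3 the length differences were -0.00 ± 0.04 and 0.03 ± 0.12.

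Of the 4 collagen-binding α chains 3 were tested, and none passed. ITGA1, which also binds laminins, had 18.2, 16.1 and 17.6 CPM against 16.4, 17.4 and 14.99 CPM (log2 fold change -0.09, edgeR adjusted p = 0.731). Its exons overlap the gene PELO on the same strand, and its estimated counts were not whole in all 6 libraries. ITGA2, its neighbour on chromosome 5 at a distance of 30116 bases, had 22.0, 22.9 and 21.6 CPM against 20.8, 21.4 and 23.1 CPM (log2 fold change -0.03, 95% interval -0.20 to 0.14). ITGA10 and ITGA11 had at most 25 and 7 counts in a well, and ITGA11 was not tested.

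ITGA4 and ITGA9, chains of receptors for VCAM1 and, in the case of ITGA9, tenascin, lay on either side of 0. ITGA9 had 13.8, 11.6 and 11.8 CPM on LN-521 and 9.63, 11.2 and 9.59 CPM on the mixture, without overlap. Its log2 fold change of -0.29 ± 0.11 (SE; 95% interval -0.52 to -0.06) did not pass in edgeR (adjusted p = 0.204). ITGA4 had 4.33 ± 0.523 and 5.06 ± 0.568 CPM (SD, n = 3 each), and the wells overlapped (log2 fold change 0.23, 95% interval -0.09 to 0.54).

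The chains of leukocyte integrins were at few counts, apart from ITGAE. ITGAE, which binds E-cadherin on epithelia, had 5.10 ± 0.675 and 4.37 ± 0.820 CPM (SD, n = 3 each; log2 fold change -0.22, 95% interval -0.56 to 0.13). Its exons overlap those of HASPIN on the opposite strand, a gene with 591 to 858 counts per library. ITGAM, ITGAX and ITGB2 were tested at 1.35 CPM or less, and their adjusted p-values in edgeR were 0.879, 0.510 and 0.909. ITGAL, ITGAD and ITGB7 had 0 to 10 counts per library and were not tested. Of the leukocyte and platelet markers, PTPRC, CD3E, CD14 and GP9 had means of 0.015, 0.0417, 0.055 and 0.0867 TPM, and PF4 and HLA-DRA of 2.33 and 5.18 TPM.

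Of the 6 receptors and partners that are not integrin chains, none passed. SGCB (ENSG00000163069, chromosome 4, 52020706 to 52038482, minus strand), a sarcoglycan that holds dystroglycan in the dystrophin complex of muscle, came nearest. It had 37.8, 36.7 and 38.2 CPM on LN-521 and 43.0, 46.0 and 44.1 CPM on the mixture. The coatings did not overlap in CPM, and the log2 fold change was 0.24 ± 0.07 (SE; 95% interval 0.10 to 0.38, edgeR adjusted p = 0.0695). It passed without LN-521 replicate 1 (edgeR adjusted p = 0.0346) and with the GC correction (0.0431), and missed the threshold in the other 5 fits that left out a well (edgeR adjusted p from 0.0804 to 0.359). Its TPM overlapped, with 9.23, 8.01 and 7.91 on LN-521 and 10.3, 9.57 and 9.18 on the mixture, and limma on log2(TPM + 1) gave an adjusted p of 0.712. The difference stayed positive in all 15 alternatives tried. SGCE, the sarcoglycan found in many tissues, overlapped (log2 fold change 0.05, 95% interval -0.14 to 0.25).

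DAG1, whose product binds laminin α chains through a sugar chain called matriglycan, had 132.6, 145.5 and 139.6 CPM on LN-521 and 144.9, 149.7 and 153.5 CPM on the mixture. Only LN-521 replicate 2 reached the range of the mixture. The log2 fold change was 0.10 (95% interval -0.02 to 0.22, edgeR adjusted p = 0.432), and with the GC correction 0.13 (edgeR adjusted p = 0.0482). BCAM, a receptor for laminins with the LAMA5 chain, had 65.5, 90.1 and 72.0 CPM against 75.5, 80.1 and 76.3 CPM (log2 fold change 0.03, 95% interval -0.18 to 0.23).

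CD151, a tetraspanin that binds the integrins of ITGA3 and ITGA6, had 40.5, 54.2 and 48.4 CPM against 40.6, 44.8 and 50.8 CPM (log2 fold change -0.07, 95% interval -0.29 to 0.15). RPSA had 1597 ± 128 and 1598 ± 50.3 CPM (SD, n = 3 each), and its log2 fold change was 0.00 with an interval of -0.12 to 0.12. Its counts were not whole in all 6 libraries, and the gene has many processed pseudogenes, so its level is uncertain to the extent that reads were shared with them. For BCAM, CD151 and RPSA the SD on LN-521 was larger than the difference between the means.

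The genes that work with these receptors were counted in 8 further lists of 145 genes, of which 132 passed the filter. These lists were chosen with earlier results of these data known, so the counts are a description and no test of the lists. In all 11 passed the threshold, 4 higher and 7 lower, beside 2.53% of all genes. Per list these were 1 higher of 11 laminin chains tested, 1 higher and 4 lower of 26 other integrin ligands, 1 higher of 11 genes of the dystrophin complex, 1 higher and 1 lower of 30 integrin activators and adaptors, and 2 lower of 14 tetraspanins and partners. None passed among 18 enzymes that build matriglycan, 3 hemidesmosome genes and 19 genes of integrin traffic and glycosylation. At an unadjusted p under 0.05 these last lists held 2, 1 and 5 genes, beside 14.5% of all genes. Limma on log2(TPM + 1) called none of the listed genes. The median log2 fold change was -0.02 over the 132 genes and -0.001 over all genes.

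Among the adaptors, FERMT2 rose and VCL fell. FERMT2 encodes kindlin-2, which binds the tail of β chains and, with talin, switches integrins on. It had 212, 192 and 198 CPM on LN-521 and 297, 310 and 308 CPM on the mixture, far outside the spread of either group. The log2 fold change was 0.61 ± 0.05 (SE; edgeR adjusted p = 4.38e-06). VCL, the gene of vinculin, which ties talin to actin, had 294, 286 and 299 CPM against 248, 240 and 244 CPM (log2 fold change -0.26 ± 0.05, edgeR adjusted p = 0.00599). It lost the threshold without LN-521 replicate 3 (edgeR adjusted p = 0.0600), LN-521+LN-221 replicate 2 (0.0894) or LN-521+LN-221 replicate 3 (0.0522). FLNA, filamin A and the activator list's gene with the highest TPM, overlapped (log2 fold change -0.08, edgeR adjusted p = 0.633).

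Among the ligands that the cells themselves transcribe, the fibronectin gene FN1 fell from 387, 395 and 422 CPM to 293, 296 and 290 CPM (log2 fold change -0.45 ± 0.05, edgeR adjusted p = 5.08e-05). SPP1 (osteopontin), CCN2 and EDIL3, ligands of ITGAV integrins among others, fell as well. CCN2 went from 41.0 ± 4.33 to 28.3 ± 1.5 CPM and SPP1 from 21.6 ± 2.46 to 14.8 ± 0.787 CPM (SD, n = 3 each), with log2 fold changes of -0.54 and -0.55 (edgeR adjusted p = 0.00117 and 0.00394). EDIL3 (log2 fold change -0.27, edgeR adjusted p = 0.0176) kept the threshold, with 1 well left out, only without LN-521 replicate 1 or LN-521 replicate 2. Without any of the other 4 wells its adjusted p in edgeR was 0.0571 to 0.161. MFGE8, an RGD ligand of ITGAV integrins with the highest TPM in the list, had lower values that did not overlap (log2 fold change -0.21, edgeR adjusted p = 0.0772).

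VWF, a ligand of the ITGA2B integrin, rose at a very low level, from 1.39, 1.65 and 1.57 CPM to 2.17, 3.05 and 3.72 CPM (log2 fold change 0.95 ± 0.22, edgeR adjusted p = 0.0272). Its call was lost without LN-521 replicate 3 (edgeR adjusted p = 0.113), LN-521+LN-221 replicate 2 (0.131) or LN-521+LN-221 replicate 3 (0.215). VWF is also a marker of endothelium. Its TPM overlapped, with a mean of 0.36. Of the 4 other endothelial markers in the list, TEK had a mean of 4.05 TPM, CLDN5 0.228, PECAM1 0.0767 and CDH5 0.0367, and neither of those tested passed (TEK and CLDN5, edgeR adjusted p = 0.951 and 0.716).

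Of the laminin chains, LAMB1 rose from 70.4, 69.1 and 65.4 CPM to 91.3, 95.3 and 93.7 CPM (log2 fold change 0.45 ± 0.06, edgeR adjusted p = 1.61e-04). It is the β chain of laminins other than the coating proteins, which both contain LAMB2. LAMB2, the laminin chain with the highest TPM, overlapped between the coatings (log2 fold change 0.05, edgeR adjusted p = 0.850).

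In the dystrophin complex, which links dystroglycan to actin, DMD rose from 33.1, 31.1 and 30.9 CPM to 42.8, 43.5 and 40.0 CPM (log2 fold change 0.41 ± 0.07, edgeR adjusted p = 0.00279). UTRN, the gene of the related utrophin and the list's most abundant by TPM, had values that did not overlap in CPM but missed the threshold (log2 fold change 0.15, edgeR adjusted p = 0.198). Of the 5 skeletal muscle markers, DES had a mean of 7.72 TPM and was lower on the mixture (log2 fold change -1.03, edgeR adjusted p = 0.00303), and ACTA1 had a mean of 1.45 TPM and did not pass (log2 fold change -0.33, edgeR adjusted p = 0.461). CKM, MYOG and MYOD1 had means of 0.108, 0.0167 and 0.00833 TPM and were not tested.

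The tetraspanin CD81 and its partner IGSF8, which associate with β1 integrins, fell. IGSF8 went from 60.7, 76.2 and 66.1 CPM to 49.3, 49.9 and 47.4 CPM (log2 fold change -0.47 ± 0.08, edgeR adjusted p = 0.00173). CD81 went from 64.5, 78.2 and 73.8 CPM to 56.5, 58.8 and 61.7 CPM (log2 fold change -0.29 ± 0.07, edgeR adjusted p = 0.0404). With 1 well left out the call for CD81 held only without LN-521 replicate 1, and its adjusted p in edgeR without any other well was 0.0745 to 0.223. BSG, basigin, the list's most abundant by TPM, overlapped (log2 fold change -0.06, edgeR adjusted p = 0.645), as did DPM1 of the matriglycan enzymes and RAB11A of the traffic genes (-0.02 and 0.11, edgeR adjusted p = 0.957 and 0.421). DST, dystonin, which anchors hemidesmosomes, did not overlap but missed the threshold (log2 fold change 0.22, edgeR adjusted p = 0.0930). Without LN-521 replicate 1, MFGE8 (edgeR adjusted p = 0.00114), UTRN (0.0127), DST (1.34e-04) and RAB11A (0.0274) passed. With all 6 wells, MFGE8 and DST passed in 5 of 9 alternative settings each, among them DESeq2 (adjusted p = 0.0166 and 0.0310), the replicate block (edgeR adjusted p = 0.0287 and 0.0242) and the GC correction (edgeR adjusted p = 0.0113 and 0.0141). In the fits of log2 TPM with limma their adjusted p was 0.669 to 0.812. UTRN and RAB11A passed in 0 of these 9 settings.

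**Figure D5:**
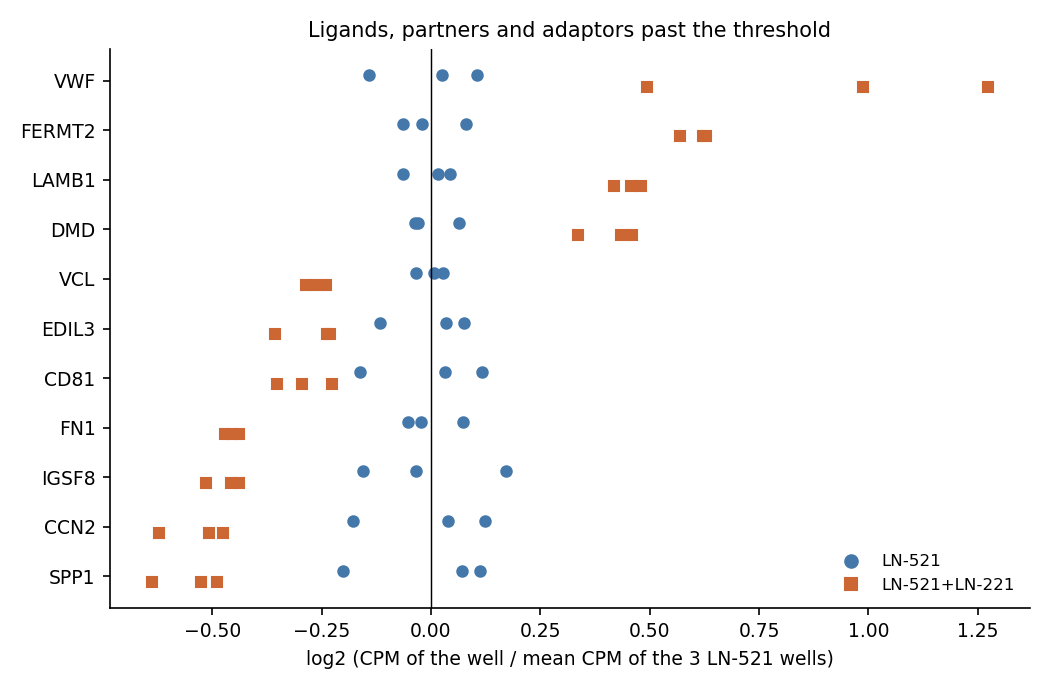
Expression of the 11 listed ligands, partners and adaptors that passed the threshold in each well, as log2 of the well's CPM over the mean CPM of the 3 LN-521 wells; circles are LN-521 and squares LN-521+LN-221. VWF, FERMT2, LAMB1 and DMD lie to the right and the other 7 to the left, with no overlap between circles and squares of any gene.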

How the data were processed

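Total RNA of 6 wells was sequenced with a stranded total RNA kit in pairs of 150 bp, per the labels' protocols. STAR 2.5.2b, RSEM 1.2.31, cutadapt and the build hg38 are named in the submitters' processing notes, and the annotation is not given in the sources used here. The authors deposited estimated counts per gene (6.08% to 6.67% of values per library were not whole) and TPM. Every gene ID named was matched to its symbol in a table of gene names, and coordinates and exon overlaps came from GENCODE 29 on GRCh38. The 32 members, the 8 further lists and the marker lists were chosen with earlier results of these data known.

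Estimated counts were rounded, filtered with filterByExpr (minimum count 10), scaled by TMM and tested with edgeR 4.0.16 (R 4.3.3, robust quasi-likelihood fit, no replicate block) over 17608 genes, with Benjamini-Hochberg adjustment and a threshold of 0.05. CPM are rounded counts over TMM-scaled totals. The SE is the log2 fold change's absolute value over the square root of F. Limma 3.58.1 was used on log2(TPM + 1), log2(TPM + 0.1) and, chosen after seeing the data, on log2 of count over TPM, for genes with at least 1 TPM and 50 counts in every library. DESeq2 1.42.0, RLE scaling, other filters, a GC correction (lowess, span 0.3), thresholds of 0.01 and 0.1, a replicate block and leaving out each well were alternatives. Named beside the members were listed genes past the threshold and the gene of each list with the highest mean TPM. Genes named among the markers were chosen after their values were seen. On simulated data of 17308 genes the edgeR script recovered 98% of planted log2 changes of 1 and 75% of those of 0.5, with 6.99% of calls false. Changes were planted only in genes with an expected count of at least 50. Recovery at lower counts or of smaller changes was not simulated. No 2 libraries matched within sampling noise (chi-square per degree of freedom at least 2.85). Protein and promoter sequences were not used here, and 1 marker is not reported here by name.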

Additional observations from a re-analysis of the deposited data

How the results depend on the processing

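ITGA3, ITGB8, ITGB5, SGCB, ITGB1 and DAG1 kept their direction in all 15 alternatives. Of 17608 genes tested 446 passed, and 718 did without a filter on low counts, 33 with limma on log2(TPM + 1), 16 on log2(TPM + 0.1), 911 with the GC correction, 963 with the replicate block and the GC correction, 221 at a threshold of 0.01 and 725 at 0.1. The receptor genes that passed, 2 in the main test, were 0 in both TPM fits, 6 with the GC correction, 5 with the block and the GC correction, 1 at 0.01 and 4 at 0.1. The 11 listed partners became 18 without the filter, 0 in both TPM fits, 18 with the replicate block, 23 with the GC correction, 26 with both and 22 at 0.1. Leaving out a well gave 194 to 1179 genes, 0 to 4 receptor genes and 7 to 30 partners, with the highest counts without LN-521 replicate 1. Same-numbered wells did not deviate together (mean r = 0.011 across genes, against -0.006 for other numbers, at most 0.047 and 0.057). So few correlations cannot show whether same-numbered wells shared a culture. The replicate block gave 646 genes and the same 2 receptor genes.

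Signs turned for genes that did not pass. On log2(TPM + 1) and log2(TPM + 0.1) the values were 0.017 and 0.022 for ITGA2, 0.297 and 0.317 for ITGA2B, 0.087 and 0.141 for ITGB4, -0.072 and -0.073 for LAMB2, and 0.033 and 0.035 for DPM1. With the GC correction, without and with the block, they were -0.0125 and -0.0125 for ITGAV, 0.0504 and 0.0504 for ITGA2B, and -0.017 and -0.012 for RPSA, and with both SGCE was -0.0013. RPSA was -0.0086 without the filter and -0.0023 in DESeq2. Leaving out each well gave ranges that spanned 0: -0.141 to 0.0024 for ITGA7, -0.073 to 0.0075 for ITGA2, -0.207 to 0.407 for ITGA10, -0.109 to 0.068 for ITGA2B, -0.575 to 0.138 for ITGB2, -0.069 to 0.171 for BCAM, -0.176 to 0.032 for CD151, -0.053 to 0.065 for RPSA, -0.014 to 0.109 for SGCE, -0.053 to 0.159 for LAMB2, -0.105 to 0.072 for DPM1 and -0.16 to 0.0063 for FLNA. The cause of the turns was not tested. Depth limits what can be said of ITGB3, ITGAX, ITGB2 and ITGA10, at 1 to 25 counts per library.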

Other observations

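Several receptor genes lie beside each other in the genome. ITGAM, ITGAX and ITGAD follow each other on chromosome 16 with gaps of 22242 and 10315 bases, and all 3 were at 1.35 CPM or less in every library. ITGA1 and ITGA2, 30116 bases apart on chromosome 5, stood at 17.3 and 22.2 CPM on LN-521 and at 16.3 and 21.8 CPM on the mixture.

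The implied transcript length of ITGB4 varied more between wells than that of the other 19 receptor genes with enough counts. It was 139%, 63.1% and 144% of the 6-library median on LN-521 and 89.4%, 77.7% and 112% on the mixture, and its TPM ran from 1.43 to 3.38. That of ITGB1 stayed between 99.3% and 102%.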
